A study of Mus musculus with 5 samples.

Results

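Stathmins and the other neuronal microtubule genes Tubb3, Mapt, Map1b and Dcx were examined for binding of REST in the embryonic mouse pancreas. The set held 8 named genes (Stmn1, Stmn2, Stmn3, Stmn4, Tubb3, Mapt, Map1b and Dcx) of 22225 protein-coding genes. A called peak belonged to a gene when it touched the gene body or lay within 50 kb of the gene start. By this rule the 5 peak lists of the series placed 6 of their 1860 sites at these genes, where a site joins the overlapping peaks of different libraries.

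REST was immunoprecipitated with the mouse monoclonal antibody 12C11 from sonicated chromatin of whole pancreas. There were 3 libraries of E18.5 (A, B and C), each a pool of 3 to 4 pancreases, and 2 libraries of E13.5 (A and B), each a pool of 4 to 6. All were from untreated wild-type embryos of a mixed strain with C57BL/6. Whole organs were used, so a peak does not show which cell type carried it, and peak lists hold no expression against which the tissue could be checked. The E18.5 lists held 541, 417 and 226 peaks and the E13.5 lists 1400 and 1333. Read depth is unknown, so a missing peak means only that none was called, and fewer bound cells, weaker binding and shallower sequencing cannot be told apart between the stages.

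REST, named for silencing through RE1, is a zinc-finger protein that represses neuronal genes outside the nervous system. It sits on the DNA element RE1, which has a left and a right block of conserved bases, and brings in corepressor complexes. Microtubules are polymers of tubulin that grow and shrink at their ends. Stathmins bind free tubulin and favour shrinkage, while tau (Mapt), MAP1B and doublecortin bind the polymer and steady it. Tubb3 encodes the beta-tubulin used as a standard marker of neurons. Stmn2, also called SCG10, is among the genes in which the silencer element bound by REST was first defined.

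The sequences at the 6 sites were compared with a consensus of the RE1 element. The consensus below was built from the 110 sites on assembled chromosomes that all 5 libraries shared, none of them in the windows of the 8 genes. Under it stands the best-matching 21 bases within 500 bp centred on each of the 6 sites, read 5′ to 3′ in the direction of the consensus from the mm9 genome. Capitals mark bases that equal the consensus, and lower case marks those that differ.
Consensus: TTCAGCACCACGGACAGCGCC
Stmn2, 1.29 kb upstream: TTCAGCACCACGGACAGCGCt
Stmn3, at the start codon: gcCAGCACCAtGGcCAGCaCC
Stmn3, 12.2 kb downstream: TgCgctACCgtGGACAGCtCC
Tubb3, first intron: gTCAGCACCtCGGACAGCaaC
Mapt, 33.3 kb upstream: TcCAGgACCttGGACAGtaCC
Map1b, 47.9 kb upstream: TTCAGCACCAtGGAgAGCGaC

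The 6 sites had 1, 5, 7, 4, 6 and 3 mismatches to the consensus in the order shown. Counted as an RE1 match with at most 5 mismatches, 4 of the 6 sites carried the element, beside 64.6% of the sites that both E13.5 libraries shared, 48.1% of all sites and 0.162% of windows 10 kb away. The downstream site of Stmn3 and the site of Mapt were the 2 without such a match. All 6 sequences kept the consensus base at positions 3, 7, 8, 9, 12, 13, 16 and 17, counted from 1 at the 5′ end of the consensus. In the 93 aligned sites behind the consensus each of these 8 positions held its base in at least 84.9% of cases. Positions 4, 5 and 15, held in 95.7%, 96.8% and 87.1% of the aligned sites, were each kept in 5 of the 6 sequences. The 8 positions were picked from the 6 sequences themselves, so this is a description. The change C11T occurred in 4 of the 6 sequences and G19A in 3, at positions where the aligned sites held the consensus base in 49.5% and 51.6% of cases.

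At E13.5, REST sites called in both libraries were present at 4 of the 8 genes (exact 95% interval 15.7 to 84.3%), Stmn3, Tubb3, Mapt and Map1b. Of all protein-coding genes, 6.92% had such a site under the same rule. At E18.5, none of the 8 genes had a site called in at least 2 of the 3 libraries (exact 95% interval 0 to 36.9%), beside 2.21% of all genes. A peak of a single E18.5 library was present at 2 members, Mapt and Map1b, and 4.97% of all genes had an E18.5 peak in 1 or more libraries. Counting every library of both stages, 5 of the 8 genes had a site, beside 9.82% of all genes, and the E13.5 libraries alone gave the same 5, beside 8.54%. By library, 1, 1 and 0 members had a peak in E18.5 A, B and C, against 4 and 5 members in E13.5 A and B. The shares of all genes were 3.29%, 3.07% and 1.98% in the E18.5 libraries, against 7.88% and 7.60% in the E13.5 libraries. With windows restricted to the gene body and 5 kb around the start, 2 members, Stmn3 and Tubb3, had a site in both E13.5 libraries, beside 2.83% of all genes. The 8 genes were chosen with earlier results of these data known and were not drawn at random. These counts are therefore a description, the intervals cover counting error only, and no test was applied to them. No member reached both E13.5 lists when only the 226 top-scoring peaks of every library were used.

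**Figure D1:**
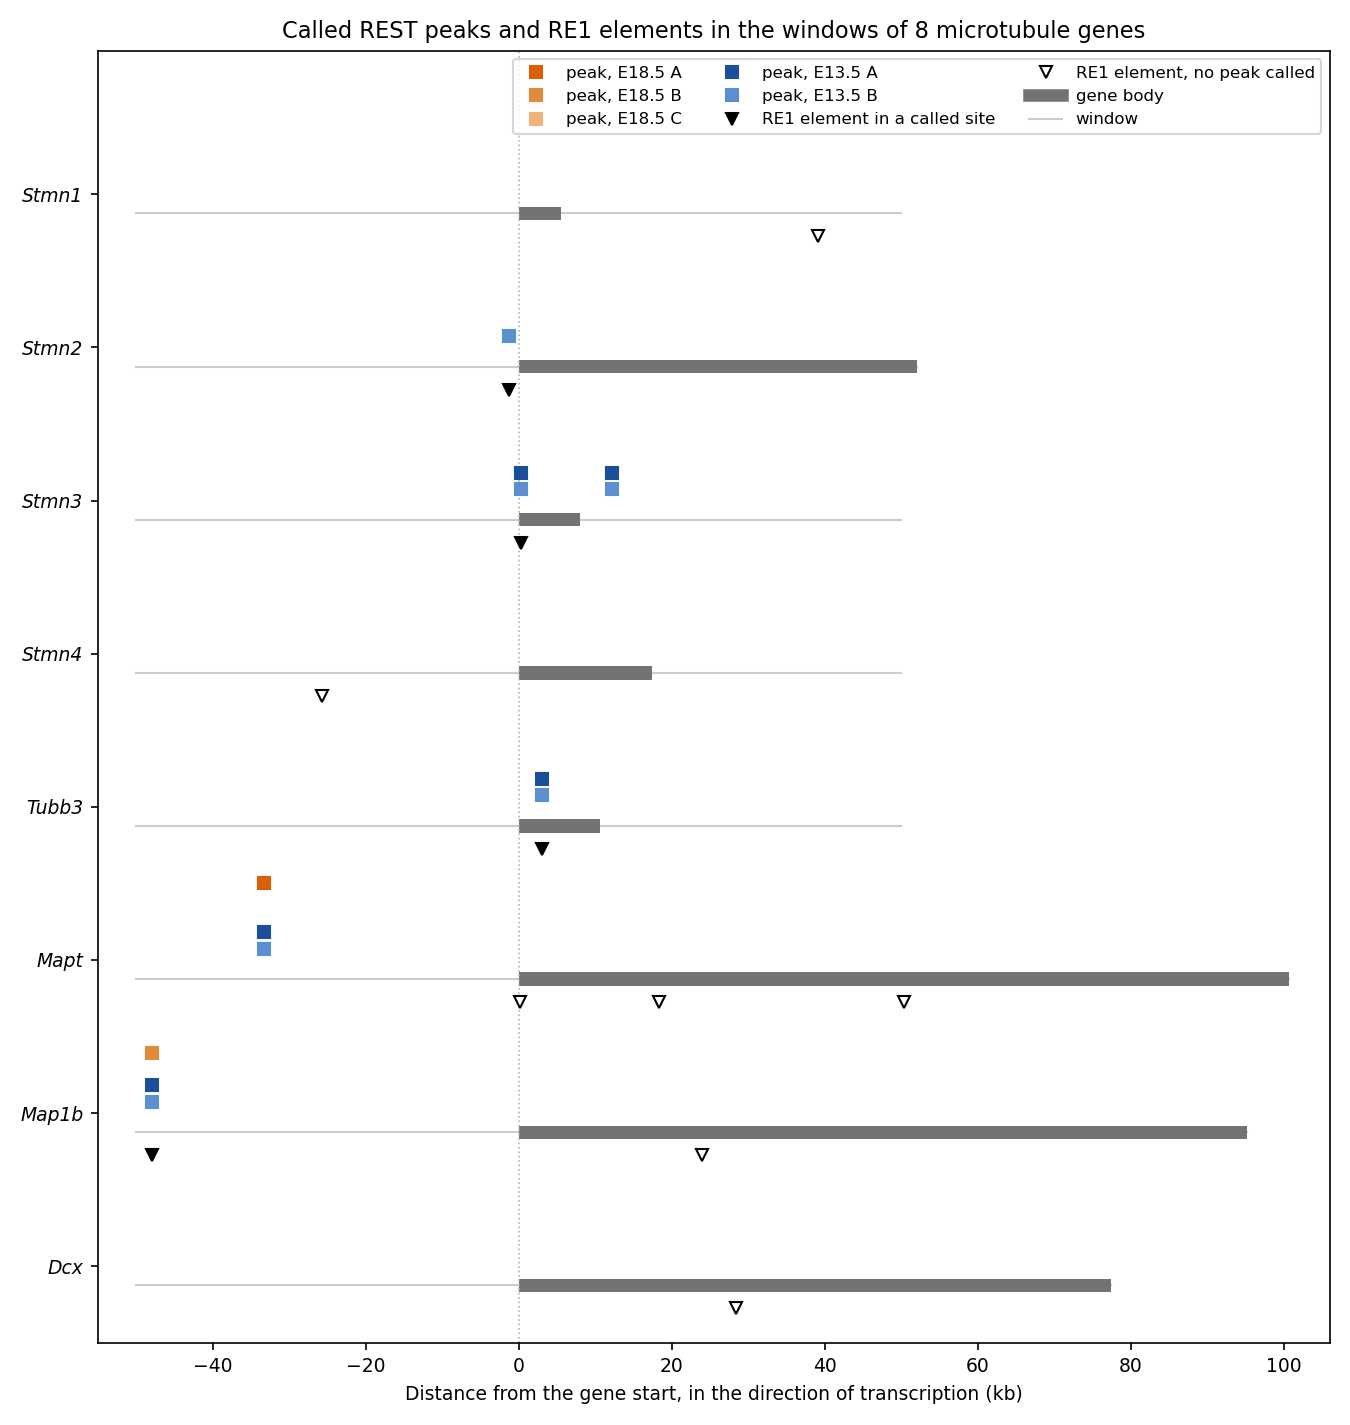
Position of called REST peaks (squares, 1 row of squares per library) and of RE1 elements with at most 5 mismatches (triangles, filled when inside a called site) around the start of each of the 8 genes, in kb along the direction of transcription, with gene bodies as grey bars and windows as thin lines. Blue E13.5 peaks are present at 5 genes, orange E18.5 peaks at Mapt and Map1b only, and Stmn1, Stmn4 and Dcx have elements but no peak.

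Among the stathmins, Stmn3 (ENSMUSG00000027581.11, chromosome 2, 181041164 to 181049205, minus strand) was the gene with the highest-ranked site of the set. Stmn3 encodes a neuronal stathmin that is anchored to membranes. Its main site (chromosome 2, 181048654 to 181049200) was centred 279 bp downstream of the start, in the first exon. It was called in none of the 3 E18.5 libraries, against scores of 21 in E13.5 A and 33 in E13.5 B. The score is the authors' whole-number value for a peak. Its unit is unknown, so it was turned into a percentile rank within its library, where 100 is the highest. The ranks were 74.8 in E13.5 A and 87.3 in E13.5 B.

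The element of this Stmn3 site covers the beginning of the protein-coding sequence. It occupies positions 181048906 to 181048926 on the same strand as the gene, and its positions 10 to 12 are the ATG start codon in exon 1. The first 9 bases of the element thus belong to the 5′ UTR and the other 12 to the coding sequence. The substitutions against the consensus were T1G, T2C, C11T, A14C and G19A, and C11T supplies the T of the start codon. The peak centres lay 14 and 11 bp from the centre of the element in E13.5 A and B.

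The second site of Stmn3 (chromosome 2, 181036770 to 181037186) was intergenic and centred 12.2 kb downstream of the start, beyond the 3′ end of the gene. The Stmn3 start was nevertheless the nearest one of any protein-coding gene. It was not called at E18.5, and its ranks at E13.5 were 15.4 in library A and 53.8 in library B, for scores of 8 and 18. Its best sequence match had 7 mismatches, 4 of them in the left part at positions 2, 4, 5 and 6, while positions 12 to 18 were all kept.

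Stmn2 (ENSMUSG00000027500.8, chromosome 3, 8509527 to 8561604, plus strand), a membrane-anchored stathmin of growing axons, had the best element of the set but only 1 peak. The site (chromosome 3, 8507996 to 8508453) was centred 1.30 kb upstream of the start, and its element (8508230 to 8508250) differed from the consensus by C21T alone. It was absent from all 3 E18.5 lists and from E13.5 A, and present in E13.5 B with a score of 17 and a rank of 49.3. The peak of E13.5 B was 458 bp long and centred 15.5 bp from the element. Stmn2 is therefore not among the genes counted as having a site in both E13.5 libraries. The mm9 genome held 27 sequences with exactly 1 mismatch and 2 with none. All of them were inside a called site of at least 1 library, and of the 29 called sites with at most 1 mismatch 27 (93.1%) were called in both E13.5 libraries. The Stmn2 site was 1 of the other 2, and both were called in E13.5 B but not in E13.5 A. Of the 29 sites, 21 (72.4%) were called in 1 or more E18.5 libraries. Among the 145 sites called in E13.5 B but not in E13.5 A, the Stmn2 site ranked above 88.3%, and the median rank of those sites was 18.

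Stmn1 and Stmn4 had no called site in any library. Stmn1 (ENSMUSG00000028832.5, chromosome 4, 134024235 to 134029758) encodes the stathmin found in proliferating cells of many tissues. The nearest site was called in all 5 libraries but lay 448 kb upstream of its start, nearest to Lin28a, which encodes an RNA-binding protein of early development. Stmn4 (ENSMUSG00000022044.8, chromosome 14, 66963133 to 66980517) is a neural stathmin. The site nearest to it lay 183 kb upstream, next to the nicotinic receptor gene Chrna2, and was called in both E13.5 libraries and in no E18.5 library. Each window held 1 sequence with 5 mismatches, 39.2 kb downstream of the Stmn1 start in a coding exon of the neighbouring Paqr7 and 25.8 kb upstream of the Stmn4 start.

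The site of Tubb3 was inside the gene. Tubb3 (ENSMUSG00000062380.3, chromosome 8, 125935324 to 125945915, plus strand) had a site at 125938105 to 125938502, centred 2.98 kb downstream of the start in intron 1. The annotation also places an intron of the long gene model Gm20388 there, which spans several genes. No E18.5 library had a peak at the site, against ranks of 62.6 in E13.5 A and 53.8 in E13.5 B, for scores of 17 and 18. Its element (125938356 to 125938376, plus strand) had the substitutions T1G, A10T, G19A and C20A and was 9.5 bp from the peak centre in E13.5 A and 62.5 bp in E13.5 B. The scores of the 2 libraries differed by 1 while the ranks differed more, and the median score over all peaks was 14 in E13.5 A and 17 in E13.5 B.

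The genes of the microtubule-associated proteins carried sites far from their starts. Mapt (ENSMUSG00000018411.10, chromosome 11, 104092704 to 104193404, plus strand) encodes tau. Its site (104059127 to 104059658) was intergenic, 33.3 kb upstream of the Mapt start and nearer to 4933407P14Rik, whose start was 11.8 kb away. It was called in E18.5 A with a score of 4 and a rank of 8.23, and not in E18.5 B or C, against ranks of 54.8 in E13.5 A and 71.1 in E13.5 B for scores of 15 and 24. The best match in it had 6 mismatches and was centred 18 and 1.5 bp from the peak centres of E13.5 A and B. The E18.5 A peak was centred 95.5 bp from it.

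Map1b (ENSMUSG00000052727.4, chromosome 13, 100191419 to 100286557, minus strand, named Mtap1b in the mm9 annotation) encodes a large protein of growing axons. Its site (100334241 to 100334733) was intergenic and 47.9 kb upstream of the start, just inside the limit of 50 kb, and no other protein-coding start was nearer. It was called in E18.5 B with a score of 4 and a rank of 9.11, and not in E18.5 A or C, against ranks of 15.4 in E13.5 A and 44.3 in E13.5 B for scores of 8 and 16. The element (100334493 to 100334513) had 3 mismatches, C11T, C15G and C20A, the closest match of the set after Stmn2, although the site ranked lowest of the 5 called in both E13.5 libraries. The element was centred 23.5 and 19 bp from the peak centres of E13.5 A and B and 82 bp from that of E18.5 B.

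Dcx (ENSMUSG00000031285.7, chromosome X, 140290385 to 140367854, minus strand), which encodes doublecortin of migrating neurons, had no site in any library. The nearest called site, from a single E18.5 library, was 6213 kb downstream of its start. The gene nevertheless contains a sequence with only 3 mismatches (C11T, G19A and C21A) in intron 3, 28.4 kb downstream of its start (140339418 to 140339438):
Dcx, intron, no peak called: TTCAGCACCAtGGACAGCaCa
Of the 264 sequences with 3 mismatches in the genome, 219 (83.0%) were in a called site of at least 1 library. Chromosome X as a whole held 19 called sites, 4 of them in both E13.5 libraries. It held 2 sequences with at most 3 mismatches, neither of them called, and 6 with exactly 4 mismatches, of which 4 were called.

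Over the 5 sites called in both E13.5 libraries, mean ranks were 81.1 for Stmn3 at its start codon, 62.9 for Mapt, 58.2 for Tubb3, 34.6 for Stmn3 downstream and 29.9 for Map1b. The range of the 2 libraries at the Stmn3 start codon (74.8 to 87.3) did not overlap that of Mapt (54.8 to 71.1), while Mapt and Tubb3 overlapped, as did Stmn3 downstream and Map1b. Rank and closeness to the consensus did not follow the same order, since the highest-ranked site had 5 mismatches and the lowest-ranked 3. Peaks at these sites were 111 to 197 bp long in E13.5 A and 398 to 547 bp in E13.5 B, against medians of 161 and 483 bp over all peaks of these libraries.

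**Figure D2:**
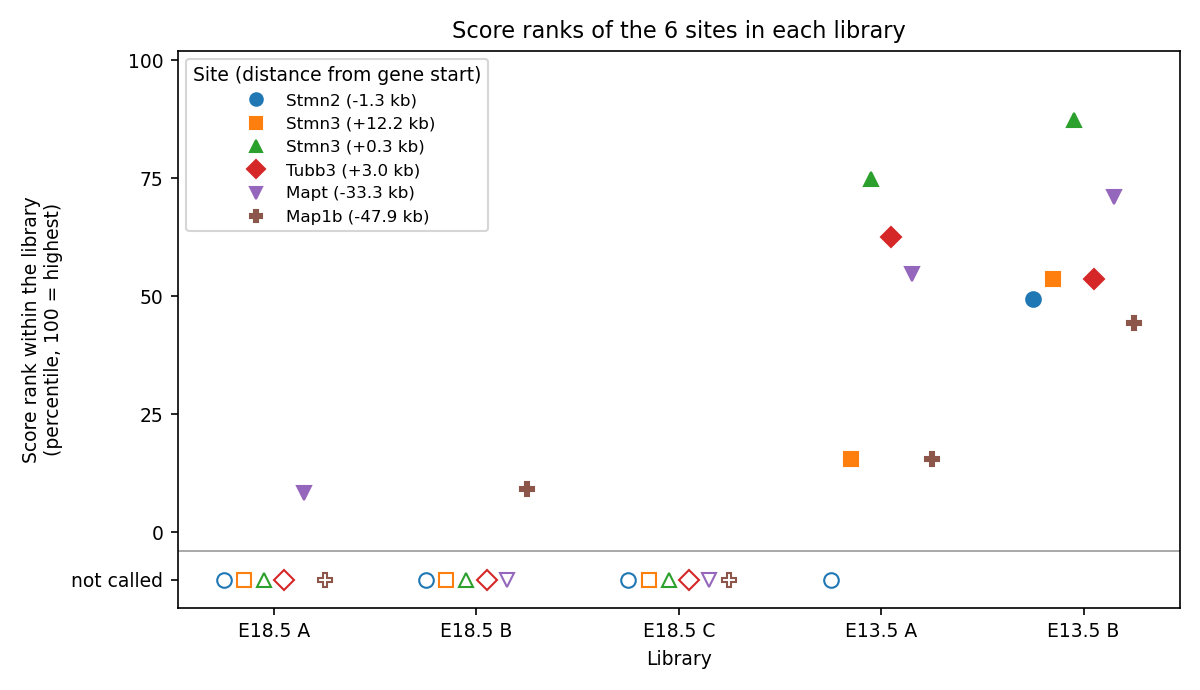
Percentile rank of the score within each library (100 is the highest) for the 6 sites at these genes, with E18.5 libraries left of E13.5 libraries and open symbols where no peak was called. The site at the Stmn3 start codon is the highest in both E13.5 libraries, at 74.8 and 87.3, and only Mapt and Map1b have a rank at E18.5, at 8.23 and 9.11.

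Calls at E18.5 were then set beside E13.5 rank. At these genes, 2 of the 5 sites shared by the E13.5 libraries were called at E18.5 in 1 or more libraries, beside 40.3% of all such sites, and 0 of 5 in at least 2 libraries, beside 20.4%. The Stmn3 site at the start codon was not called at E18.5. Of the 124 other sites with a mean E13.5 rank within 5 points of it, 99 (79.8%) were called at E18.5 in 1 or more libraries and 59 (47.6%) in at least 2. The Map1b site differed in the other direction, on a single low-ranked peak of E18.5 B (score 4, rank 9.11). Of 153 sites of like E13.5 rank only 11 (7.19%) were called at E18.5. For Tubb3, which was not called at E18.5, the share was 34.9% of 146 sites, for Mapt, called in E18.5 A, 34.1% of 132, and for the downstream site of Stmn3, not called, 13.8% of 130. These shares are a description of the lists and were not tested. Ranks could not be compared between stages at any member, because none of the 113 sites called in all 5 libraries was among the 6. With 3 libraries against 2, the smallest p that an exact two-sided permutation test allows is 0.2.

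Every one of the 8 windows held at least 1 sequence with at most 5 mismatches, beside 25.9% of all protein-coding genes. With at most 3 mismatches this was so for Stmn2, Map1b and Dcx, 3 of 8, beside 3.00% of all genes. In all there were 11 such sequences in the windows, 4 of them inside a called site. The other seven were 1 each at Stmn1, Stmn4, Dcx and Map1b and 3 at Mapt. The Map1b one was in intron 2, 23.9 kb downstream of the start, and had 4 mismatches. Those of Mapt all had 5 mismatches, and 1 of them lay in the 5′ UTR in exon 1, 119 bp downstream of the start:
Mapt, 5′ UTR, no peak called: TcCAGCACCAgcagCAGCGCC
Map1b, intron, no peak called: TTCtGCAgCAgGGACAGgGCC
Of these 7 sequences without a peak, 6 differed from the consensus at 1 or more of the 8 positions that all called sequences kept, as with G12C and G13A in the 5′ UTR of Mapt and C8G in the intron of Map1b. The Dcx sequence kept all 8. These positions were picked from the called sequences. Most of the 7 had 5 mismatches, and that many will often touch 1 or more of any 8 positions. The count is therefore a description, and whether these positions matter for calling was not tested. Over the genome, 97.3%, 83.0%, 44.3% and 7.89% of sequences with 2, 3, 4 and 5 mismatches were in a called site of any library. The consensus came from called sites of the same libraries, so these shares are not independent of the calls.

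**Figure D3:**
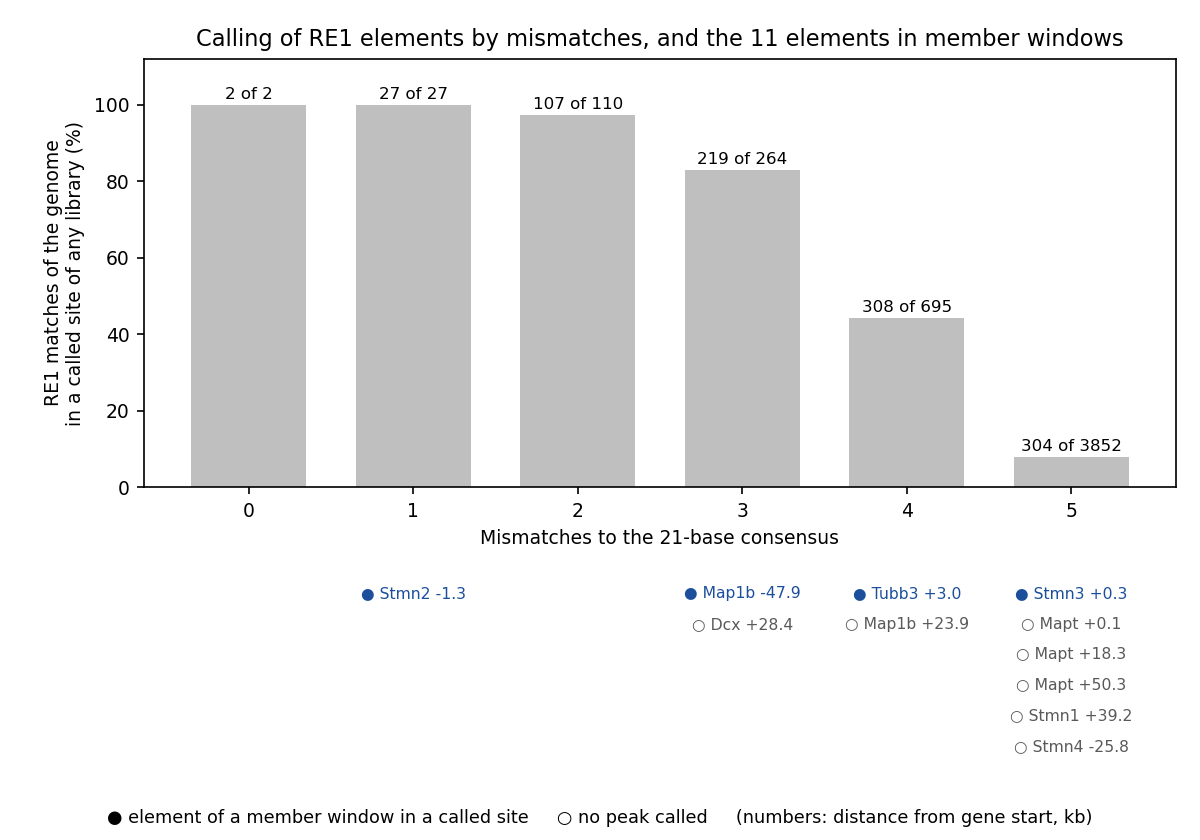
Percent of all RE1 matches of the mm9 genome that lie in a called site of any library, by number of mismatches to the 21-base consensus, with the counts above the bars. Below the axis stand the 11 elements in the windows of the 8 genes with their distance from the gene start, filled where a peak was called. The Dcx element has no peak in a class of which 83.0% is called, and the Stmn3 element has one in a class of which 7.89% is called.

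Base composition differed widely among the 6 sites. In 500 bp centred on each, GC content ran from 35.6% at Stmn2 to 63.0% at the Stmn3 start codon, with a median of 47.1%, beside a median of 49.8% (quartiles 45.0% and 54.3%) over all sites that the E13.5 libraries shared. The Stmn3 start codon site held 23 CpG dinucleotides and the other five held 4 to 10, beside a median of 7 (quartiles 4 and 14). In the promoter windows of RefSeq on GRCm38.p6, which reach from 250 bases before to 50 after a start and were found for Stmn3, Tubb3, Map1b and Dcx, no member had a match with at most 5 mismatches on either strand, and of all 32851 promoters 0.195% had one.

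The 3 sites of the series most like the Stmn3 start codon site in rank over the 5 libraries, with uncalled libraries set to 0, were nearest to Cplx3, Crhr1 and Yif1a, with root-mean-square differences of 1.23, 1.41 and 1.59 rank points. Cplx3 encodes a complexin of vesicle release (site on chromosome 9, 57453749 to 57454302), Crhr1 a receptor for corticotropin-releasing hormone (chromosome 11, 103975963 to 103976493) and Yif1a a membrane protein of vesicle transport (chromosome 19, 5087732 to 5088220). Like the Stmn3 site they had no E18.5 call, which the choice by rank fixed.

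Other microtubule genes were counted in the same way, and the lists were not tested against each other. Of 84 listed genes in 6 groups 83 matched the annotation, and 8 of them (9.64%) had a site in both E13.5 libraries, beside 6.92% of all genes, with 3 having a site in at least 2 E18.5 libraries, beside 2.21%. The collapsin response mediator proteins, which bind tubulin in growing axons, gave 2 of 5 genes at both stages. Crmp1 had 3 such sites at E13.5, the highest-ranked of them in an intron (chromosome 5, 37648393 to 37648942) with ranks of 48.1 and 41.6 in E18.5 A and C, against 82.1 and 75.7 in E13.5 A and B. The site in the window of Dpysl2 (chromosome 14, 67528481 to 67529053) was nearer to the start of Pnma2 and had a peak in all 5 libraries. The listed neuronal kinesins gave 1 of 13 at E18.5 and 2 of 13 at E13.5. The gene at both stages was Kif26a, with a site 4.78 kb upstream (chromosome 12, 113379388 to 113379953), and Kif5a, with a site in an intron (chromosome 10, 126693039 to 126693583), had a peak in E18.5 C only beside both E13.5 peaks.

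The remaining groups had no gene with a site in at least 2 E18.5 libraries. Of 33 other microtubule-associated proteins 3 were bound at E13.5, the plus-end protein gene Clip2 (chromosome 5, 135020660 to 135020948, intron), Nav1, a neuron navigator (chromosome 1, 137531306 to 137531800, intron), and Map1s, whose site was in a coding exon of the iodide transporter gene Slc5a5 (chromosome 8, 73409466 to 73409947). Of 14 tubulins only Tuba4a had a site, 43.95 kb upstream of its start. The site lay in an intron of Ptprn, which encodes a protein of secretory granules (chromosome 1, 75259489 to 75260071). No doublecortin-like gene (0 of 4) and no gene of microtubule severing and modification (0 of 14) had a site in both E13.5 libraries.

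**Figure D4:**
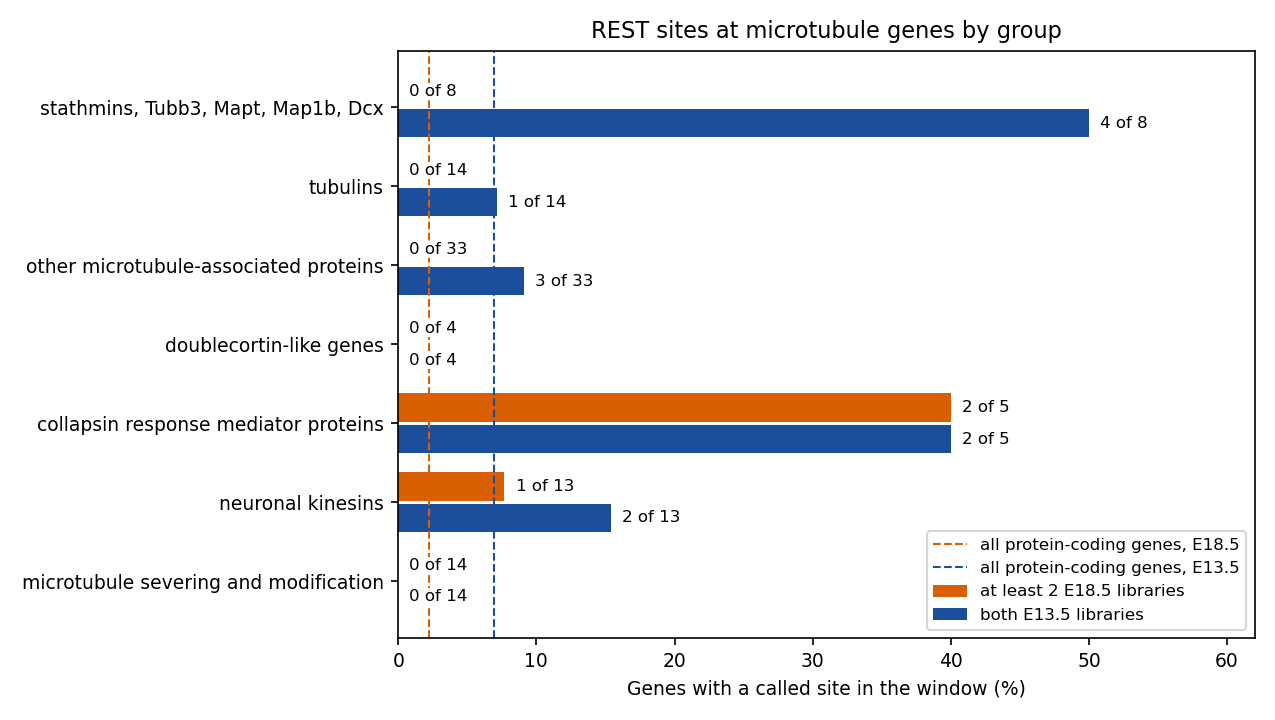
Percent of the genes of each group with a called site in the window in at least 2 E18.5 libraries (orange) and in both E13.5 libraries (blue), with counts beside the bars and dashed lines at the shares of all protein-coding genes, 2.21% and 6.92%. The 8 genes have 0 and 4 such members, and the collapsin response mediator proteins have 2 of 5 at both stages.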

How the data were processed

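REST ChIP-seq peaks were analysed for 5 libraries. According to the processing notes of the submitters and the methods of the study, the authors aligned single-end reads to mm9 with Bowtie2 2.2.5, filtered them on mapping quality and called peaks against input with MACS2 2.1.0. The deposited lists, 1 per library, are named for removal of duplicates and a false discovery rate of 10%, and each peak has a deposited score of unknown unit. The regions reported in the paper were instead called at E13.5 on pooled replicates, with a stricter limit on the false discovery rate. Peaks on 20 chromosomes were within mm9 lengths. Overlapping entries of a library (2 to 7) were merged, and peaks sharing at least 1 bp were joined across libraries. Starts came from GENCODE vM1 gene records, and promoters from RefSeq. The consensus was built from the most enriched 8-base word against windows 10 kb away, aligned and refined, and was searched on both strands. Joining and motif building were tested on simulated data. Intervals are exact binomial and cover counting error only. Named genes were the members with every site in their windows, the 3 sites closest in rank to the best member site, and other microtubule genes with a site in both E13.5 libraries. Members and lists were chosen with earlier results of these data known. Python 3.11.15 was used with numpy 2.4.6, pandas 2.3.3, scipy 1.17.1 and pysam 0.24.0.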

Additional observations from a re-analysis of the deposited data

How the results depend on the processing

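The counts of genes and sites depended mainly on the window and the score limit. With the gene body or 5 kb around the start, 2 genes and 2 sites were called in both E13.5 libraries, against 4 genes and 5 sites. With 226 top-scoring peaks per library there were 0 genes and 0 sites. Scores of 13 or more, or above the median rank of each library, left 3 genes and 3 sites. Counting only sites whose nearest protein-coding start was the member's gave 3 genes and 4 sites. Within 100 kb, 1 gene (Tubb3) and 1 site were called in at least 2 E18.5 libraries, against 0. Leaving out a library gave 4 to 5 genes and 5 to 6 sites for E13.5, the upper values without E13.5 A, and 0 genes and 0 sites for E18.5. Without 1 E13.5 library the rule asked only for the other, so the E13.5 counts could not fall. At E18.5 at least 2 calls were still required, so counts of 0 could not rise. The RE1 count ran from 3 to 5 sites with at most 4 and at most 6 mismatches. No paired analysis was possible because libraries of the 2 stages came from different embryos and no member had ranks in all of them. For the same reason the raw-score alternative for ranks was not run.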

Other observations

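Just outside the 50-kb limit, 78.6 kb upstream of the Tubb3 start, lay a site in a coding exon of Spire2, an actin nucleator gene whose start was 114 bp away (chromosome 8, 125856452 to 125857003). It was called in all 5 libraries, with ranks of 61.3, 80.0 and 41.6 in E18.5 A, B and C, against 69.7 and 71.1 in E13.5 A and B. Its best RE1 match had 7 mismatches. The site in the first intron of Tubb3 had ranks of 62.6 and 53.8 in E13.5 A and B and no peak at E18.5.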
